A study of Mus musculus with 19 samples.

Results

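The 10 genes described here act in sterol efflux and in the liver X receptor (LXR) response, and were measured in sorted mouse Kupffer cells, macrophages that live in the liver sinusoids: Abca1, Abcg1, Apoe, Apoc1, Apoc2, Mylip, Lpcat3, Npc1, Npc2 and Nr1h2. They were chosen by name for their place in the pathway, and make up 10 of the 33919 gene identifiers measured. All 10 passed the filter on low values. The libraries came from livers of female wild-type C57BL/6 mice that were digested with collagenase D. Chow_EmKCs (6 libraries) were CLEC2+ TIMD4+ cells, taken as Kupffer cells of embryonic origin, from mice on chow. MCD_EmKCs (6 libraries) were the same sorted population from mice fed for 4 weeks an MCD diet, which lacks methionine and choline and produces a fatty, inflamed liver. MCD_MoKCs (7 libraries) were CLEC2+ TIMD4- cells, taken as monocyte-derived Kupffer cells, from MCD-fed mice. No monocyte-derived group on chow was included, so in MCD_MoKCs against Chow_EmKCs the diet and the sorted population cannot be told apart, and the origin of each cell rests on 1 surface protein. RNA was amplified with Smartseq before sequencing, and levels are normalised reads (reads divided by 1 size factor per library). Nothing in the labels says which libraries came from separate animals, so p-values measure the spread between libraries.

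Macrophages take up cholesterol with lipoproteins and dead cells. In the lysosome NPC2 binds the freed cholesterol and hands it to the membrane protein NPC1, which passes it out of the organelle. Excess sterol is converted to oxysterols, which activate the nuclear receptors LXRα (Nr1h3) and LXRβ (Nr1h2), bound to DNA with RXR. Their targets include the exporters ABCA1 and ABCG1 and the apolipoproteins APOE, APOC1 and APOC2. Others are the ubiquitin ligase MYLIP (also called IDOL), which marks lipoprotein receptors for degradation, and LPCAT3, which builds polyunsaturated fatty acids into phospholipids.

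The sort and the libraries were checked first. Timd4 fell from 7491 ± 720 normalised reads (mean ± SD) in MCD_EmKCs to 400.2 ± 161 in MCD_MoKCs, as the gate selects, and Clec1b, which encodes CLEC2, was present in all groups. Library totals ran from 11642200 to 30983500 reads, with 14643 to 16847 genes having a read. Of 12 Kupffer cell markers, all were lower in MCD_MoKCs than in MCD_EmKCs. Together they held 1.98 to 2.64% of reads in MCD_EmKCs and 0.685 to 0.925% in MCD_MoKCs. Hepatocyte markers (18 genes) held 0.0345 to 0.0879% of reads in Chow_EmKCs, 0.0045 to 0.0278% in MCD_EmKCs and 0.0048 to 0.0101% in MCD_MoKCs. Markers of T and NK cells held 0.0017 to 0.0044% in MCD_MoKCs and at most 0.0010% in either other group, and dendritic cell markers reached 0.0120% in MCD_MoKCs and 0.0055% in MCD_EmKCs. MCD_MoKCs libraries 1 to 3 stood apart from libraries 4 to 7: genes with under 1000 exon bases held 4.78 to 4.85% of their reads, against 2.37 to 2.83%, and mitochondrial genes held 0.534 to 0.729%, against 0.244 to 0.359%. In Chow_EmKCs the share on short genes was 3.54 to 4.05% in libraries 1 to 3 and 2.21 to 2.74% in libraries 4 to 6, and Apoc1 and Npc2 were higher in the first 3 without overlap. In MCD_EmKCs it was 2.21 to 3.07%. The mitochondrial share also separated the EmKC groups, at 0.511 to 1.05% on chow and 0.155 to 0.317% on the MCD diet, and its part in the diet comparison was not tested. Values for MCD_MoKCs libraries 1 to 3 are given separately below where they matter.

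Most of the 10 genes did not pass the test in any comparison. The exceptions were Apoc1, which was far lower in MCD_MoKCs than in both EmKC groups, and Apoc2, which was higher in MCD_MoKCs than in MCD_EmKCs. Between MCD_EmKCs and Chow_EmKCs, 0 of 10 passed an adjusted p of 0.05 in limma, beside 4.08% of the 14875 genes tested. No member separated these groups without overlap, beside 2.96% of all genes. At an unadjusted p under 0.05 there were 2, Apoc1 and Apoc2, and edgeR and DESeq2 on the recovered reads of 18 libraries also called 0. Between MCD_MoKCs and MCD_EmKCs, 1 rose and 1 fell, beside 10.5% of all genes tested. Between MCD_MoKCs and Chow_EmKCs, 1 fell, beside 16.8%. With MCD_MoKCs libraries 4 to 7 alone, 1 was called between the MCD groups (Apoc1) and 2 against Chow_EmKCs (Apoc1 and Abcg1), and with libraries 1 to 3 alone these were 3 (Apoc1, Apoc2 and Npc2) and 2 (Apoc1 and Npc2). The median log2 fold changes of the 10 genes were -0.08, -0.05 and 0.06 in these comparisons, and those of all genes tested were -0.04, 0.02 and -0.01. The 3 comparisons share groups and are not independent.

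**Figure D1:**
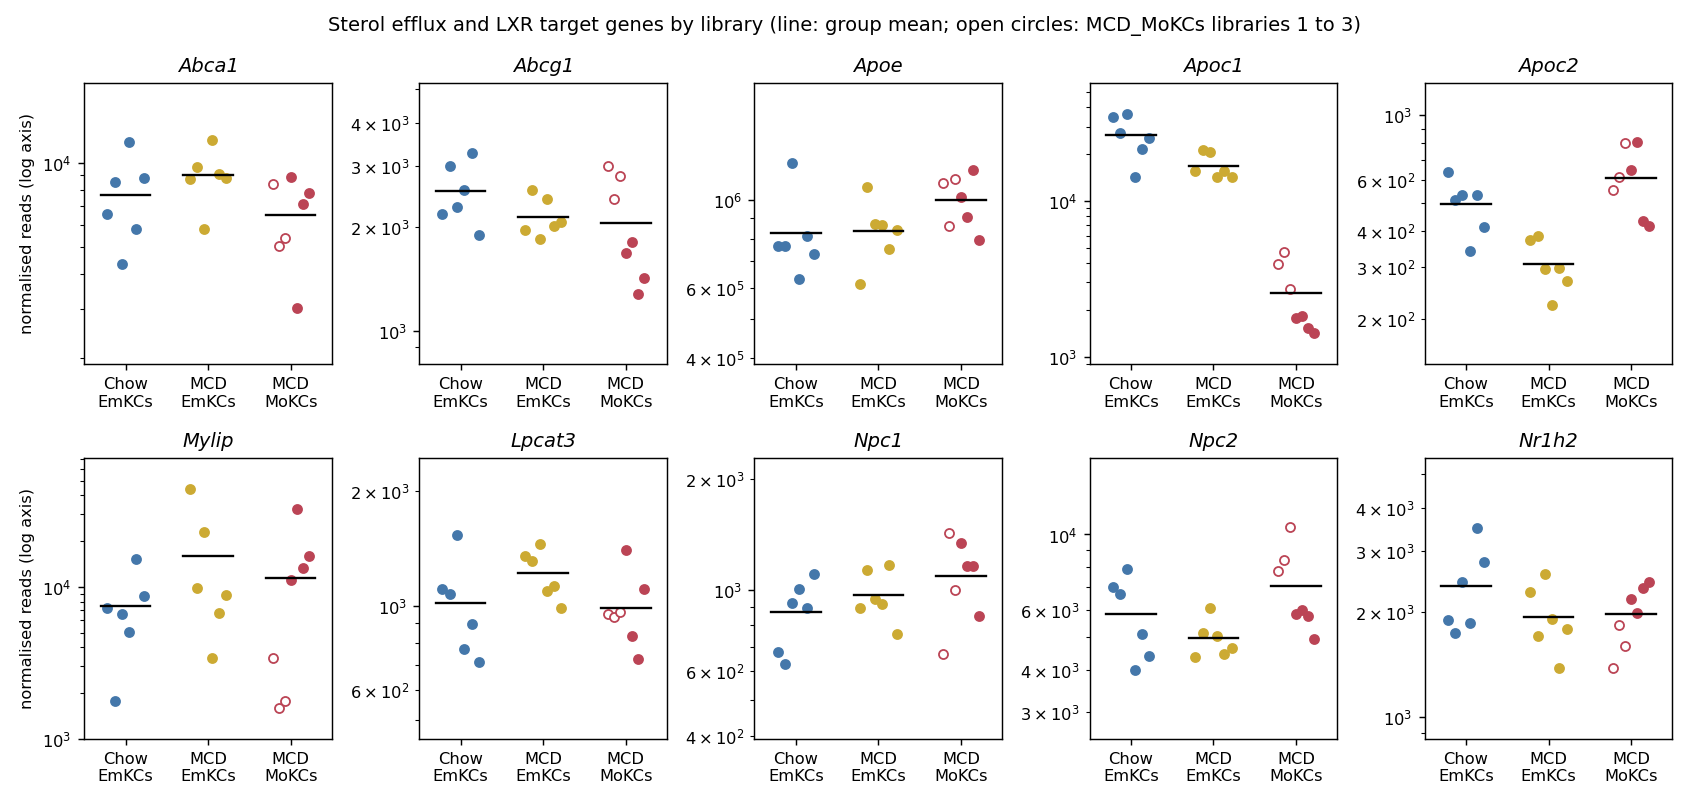
Normalised reads (log axis, a separate scale per panel) of the 10 genes in each library of Chow_EmKCs, MCD_EmKCs and MCD_MoKCs. Points are libraries, black lines are group means, and open circles are MCD_MoKCs libraries 1 to 3. Apoc1 in MCD_MoKCs lies between 1427 and 4714, below every EmKC library, and Mylip spreads from 1581 to 44414 across the 19 libraries.

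**Figure D2:**
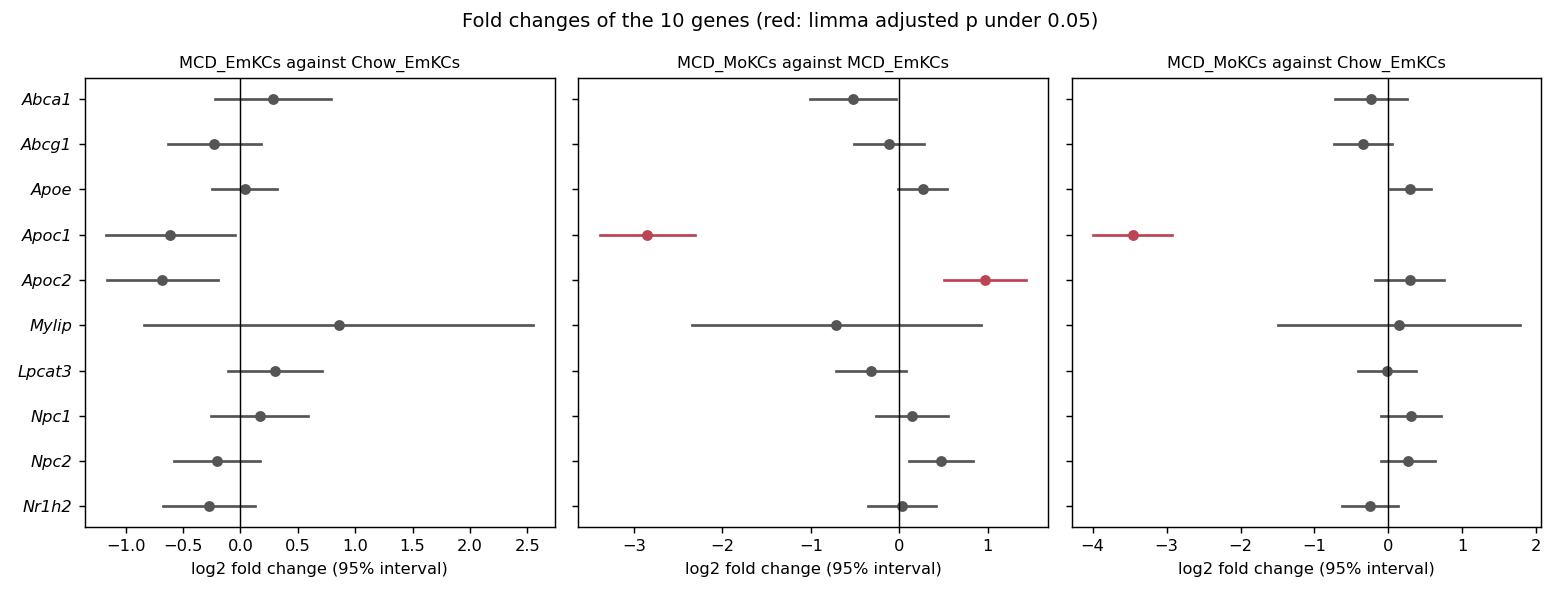
Log2 fold changes (points) with 95% intervals from limma (lines) of the 10 genes in the 3 comparisons, red where the adjusted p is under 0.05. The horizontal scale differs between panels. Apoc1 is at -2.85 and -3.46 in the comparisons with MCD_MoKCs, Apoc2 is at 0.97 in the middle panel, and the interval of Mylip is the widest in each panel.

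Apoe encodes the apolipoprotein that carries cholesterol away from macrophages and is cleared by lipoprotein receptors. It was the most abundant transcript by reads in 18 of 19 libraries and ranked 2 in MCD_EmKCs 1, and it took 2.72 to 6.57% of all reads. In Chow_EmKCs it ran from 631261 to 1239700 normalised reads with a median of 766048. In MCD_EmKCs it ran from 614708 to 1082000 with a median of 852526. In MCD_MoKCs it ran from 795013 to 1189150 with a median of 1016840. The groups overlapped in every comparison. The log2 fold change was 0.04 (SE 0.14, adjusted p 0.933) for the diet, 0.26 (SE 0.13, adjusted p 0.242) for MCD_MoKCs against MCD_EmKCs and 0.30 (SE 0.13, adjusted p 0.137) for MCD_MoKCs against Chow_EmKCs. The last value was called only without Chow_EmKCs 3, the library with the highest level on chow (0.42, adjusted p 0.0113).

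Apoc1 encodes a small apolipoprotein that inhibits lipoprotein lipase and the uptake of remnants. The gene lies beside Apoe on chromosome 7 of mm10, on the minus strand, at 19689481 to 19692660, while Apoe spans 19696109 to 19699188. In Chow_EmKCs Apoc1 ran from 14342 to 36089.5 normalised reads with a median of 26592. In MCD_EmKCs it ran from 14236 to 21272 with a median of 15511. In MCD_MoKCs the 7 libraries had 3946, 4714, 2720.1, 1775, 1819, 1521 and 1427 normalised reads, in the order of their numbers. No MCD_MoKCs library reached the lowest EmKC library, whereas the EmKC groups overlapped each other.

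The mean of Apoc1 in MCD_MoKCs was 0.151 times that in MCD_EmKCs (log2 fold change -2.85, SE 0.26, adjusted p 6.53e-08) and 0.0962 times that in Chow_EmKCs (-3.46, SE 0.26, adjusted p 1.16e-09). Groups without overlap occurred in 4.86% and 7.97% of all genes tested in these comparisons. The diet contrast was -0.61 (SE 0.27, adjusted p 0.256) and was not called. With the share of reads on short genes as a covariate it was -0.22 (adjusted p 0.488). Against MCD_EmKCs the value was -2.17 with MCD_MoKCs libraries 1 to 3 alone and -3.36 with libraries 4 to 7 alone, and it was past the threshold both ways (adjusted p 2.10e-06 and 1.86e-10). Against Chow_EmKCs these were -2.78 and -3.97 (adjusted p 2.62e-08 and 4.39e-12). The adjusted p over 29 alternatives ranged from 2.13e-21 to 2.09e-05 in the first comparison and from 1.61e-28 to 3.73e-07 in the second.

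Hepatocytes also express Apoc1. In MCD_EmKCs and MCD_MoKCs the summed hepatocyte markers overlapped in range, and 0 of the 18 were called between them, while Apoc1 alone took 0.0688 to 0.110% of reads in MCD_EmKCs and 0.0080 to 0.0263% in MCD_MoKCs. In every MCD_EmKCs library Apoc1 alone had more reads than the 18 hepatocyte markers together, which reached at most 0.0278%. Between Chow_EmKCs and MCD_EmKCs 11 of the 18 hepatocyte markers fell. In MCD_MoKCs against Chow_EmKCs all 18 fell, with a median log2 fold change of -3.22. Hepatocytes themselves were not measured, so the Apoc1 reads that go with a given marker share are not known. The part of hepatocyte RNA in the Apoc1 values was not tested in any of the 3 groups. In bulk RNA of sorted cells, fewer cells with the transcript and less transcript per cell cannot be told apart.

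Since Apoe and Apoc1 are neighbours, their ratio was compared within libraries, where the size factor cancels. On chow Apoc1 had 3.24 ± 0.81% as many reads as Apoe. On the MCD diet it had 2.05 ± 0.36% in EmKCs and 0.261 ± 0.146% in MoKCs. In the 7 MCD_MoKCs libraries the share ran from 0.128 to 0.548%, and the lowest EmKC library had 1.65%. The log2 ratio fell by 3.11 between MCD_EmKCs and MCD_MoKCs and by 3.76 between Chow_EmKCs and MCD_MoKCs (two-sided exact permutation test, p = 0.0012 for each, adjusted over 9 ratio tests to 0.0052). Between Chow_EmKCs and MCD_EmKCs it fell by 0.65 (exact permutation p = 0.0087, adjusted 0.026). That diet difference overlapped between groups, and its adjusted p was 0.0519 when any of 8 single libraries was left out: Chow_EmKCs 1, 2, 3 or 6, or MCD_EmKCs 2, 4, 5 or 6. Apoc1 has 744 exon bases and Apoe 2138, so a library's share of reads on short genes does not cancel in the ratio. With that share as a covariate the diet changes were -0.22 for Apoc1 and 0.11 for Apoe, and its part in the ratio was not tested.

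**Figure D3:**
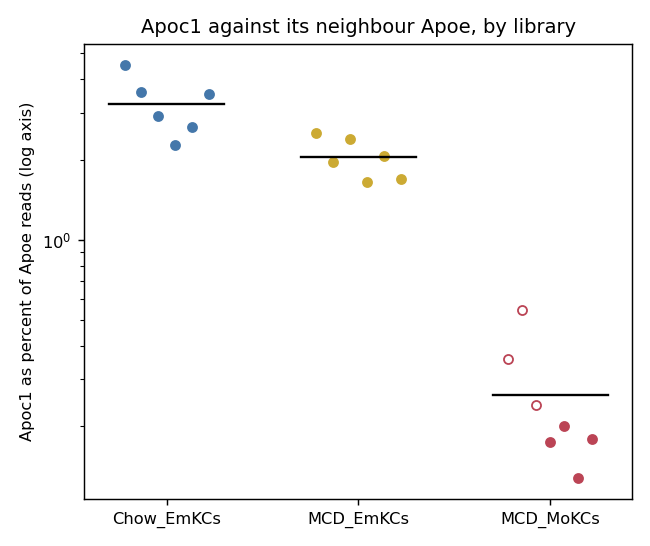
Apoc1 reads as a percentage of Apoe reads (log axis) in each library, by group. Points are libraries, lines are group means, and open circles are MCD_MoKCs libraries 1 to 3. All 7 MCD_MoKCs libraries lie at or under 0.548%, and all EmKC libraries at or above 1.65%.

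Apoc2 encodes the activator of lipoprotein lipase and lies further along the same cluster, at 19671579 to 19677941 on the minus strand. Another annotated gene, Gm44805, overlaps Apoc2 on the same strand and has no row in the table, so the reads of the 2 cannot be separated here. Apoc2 ran from 342 to 640.2 normalised reads in Chow_EmKCs (median 519.9), from 223 to 384 in MCD_EmKCs (median 298) and from 415 to 809 in MCD_MoKCs (median 615). MCD_EmKCs were the lowest of the 3 groups, and none of their libraries reached the lowest MCD_MoKCs library. The log2 fold change between MCD_MoKCs and MCD_EmKCs was 0.97 (SE 0.23, adjusted p 0.0049). It was -0.68 (SE 0.24, unadjusted p 0.0078, adjusted p 0.114) for the diet and 0.29 (SE 0.23, adjusted p 0.452) for MCD_MoKCs against Chow_EmKCs. The call was lost with MCD_MoKCs libraries 4 to 7 alone (0.87, adjusted p 0.0522) and with the share of reads on short genes as a covariate (0.77, adjusted p 0.0612). It was also lost among libraries whose label number is at most 33 (0.96, adjusted p 0.0554) or at least 37 (0.69, adjusted p 0.408).

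Apoc4, the small apolipoprotein gene between Apoc2 and Apoc1, was the only one of 9 other genes of the cluster called between the EmKC groups. It fell from 117 ± 55.9 to 24.99 ± 14.7 normalised reads on the MCD diet (log2 fold change -2.30, SE 0.66, adjusted p 0.0476). Gm44805, which has no row, overlaps Apoc4 on the same strand too, so their reads cannot be separated here. Hepatocytes express Apoc4 as well, and 11 of the 18 hepatocyte markers fell in the same comparison. The part of hepatocyte RNA in the Apoc4 values was not tested. Between MCD_MoKCs and MCD_EmKCs, Bcam (3.33, SE 1.08) and Bcl3 (0.54, SE 0.17) rose, and between MCD_MoKCs and Chow_EmKCs Relb, a subunit of NF-kappaB, rose (0.75, SE 0.20). With MCD_MoKCs libraries 4 to 7 alone, none of Bcam, Bcl3 and Relb was called in the same comparison. Bcam was low, with 0 to 59.0 normalised reads in MCD_EmKCs and 16.7 to 237 in MCD_MoKCs, and these groups overlapped. None of the 9 was called lower in either comparison with MCD_MoKCs. Their median log2 fold change was 0.45 in MCD_MoKCs against MCD_EmKCs, beside 0.02 over all genes. It was 0.37 with MCD_MoKCs libraries 1 to 3 alone and 0.24 with libraries 4 to 7 alone, where none of the 9 was called.

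The genes whose 3 log2 fold changes lay nearest those of Apoc1 were C4bp (largest difference 0.11), the Kupffer cell lectin Clec4f (0.14) and Slc1a2 (0.15). Clec4f averaged 127226 normalised reads over all libraries, while C4bp averaged 13.5. Clec4f changed by -0.47 on the diet, by -2.88 between MCD_MoKCs and MCD_EmKCs and by -3.36 against Chow_EmKCs. For Apoc2 the nearest were Kri1, Zfp788 and Ccdc69, each within 0.026.

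The exporters come next. ABCA1 loads cholesterol onto lipid-poor apolipoproteins, and ABCG1 passes it to formed HDL particles. The promoter of Abca1 is shown because its best match to the LXR element is the closest among the members whose promoters were available, together with that of Srebf1, a classical LXR target. The search used AGGTCA, any 4 bases and AGGTCA again, on both strands, in 300 bases around each start in the RefSeq table (GRCm38.p6, 250 before and 50 after). Each line gives 60 bases on the gene's strand, 5′ to 3′, with the match in capitals.

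Abca1 (chr4:53159925-53159984, minus strand, match 67 to 52 bases before the start): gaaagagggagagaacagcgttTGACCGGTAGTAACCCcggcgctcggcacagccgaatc
Srebf1 (chr11:60210616-60210675, minus strand, match 182 to 167 bases before the start): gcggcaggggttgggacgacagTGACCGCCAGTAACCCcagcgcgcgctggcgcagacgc

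Both matches lie on the opposite strand and differ from the search letters at 3 positions. Srebf1 has further start windows whose best matches differ at 4, and only its closest is shown. The shares that follow are per window, not per gene. Matches with at most 3 differences occur in 21.9% of 32851 windows, and the best in the windows of Apoe, Apoc2, Lpcat3, Nr1h2 and Npc2 differ at 4, which 76.9% of windows reach. That of Mylip differs at 5. The match is a description of the letters. Abca1, at which this element is best known, was not called in any comparison. It ran from 4332 to 11833 normalised reads in Chow_EmKCs (median 7513), from 5778 to 12100.4 in MCD_EmKCs (median 8954) and from 3025 to 8894 in MCD_MoKCs (median 7087). The groups overlapped. The log2 fold change was 0.28 (SE 0.24, adjusted p 0.626) for the diet and -0.52 (SE 0.24, unadjusted p 0.037, adjusted p 0.179) for MCD_MoKCs against MCD_EmKCs. Srebf1 was 2185 ± 569, 2793 ± 430 and 2918 ± 539 in Chow_EmKCs, MCD_EmKCs and MCD_MoKCs and was not called either.

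Abcg1 ran from 1901 to 3271 normalised reads in Chow_EmKCs (median 2423), from 1851 to 2569 in MCD_EmKCs (median 2040.1) and from 1283 to 3010.3 in MCD_MoKCs (median 1806). Within MCD_MoKCs, libraries 1 to 3 had 3010.3, 2407 and 2808, and libraries 4 to 7 had 1682, 1806, 1283 and 1422. The 2 sets do not overlap, and libraries 1 to 3 are those with more reads on short genes. All annotated exons of Abcg1 together hold 7298 bases, which need not be the length of its transcripts. The cause of the split was not tested. With all 7, the log2 fold change against Chow_EmKCs was -0.34 (SE 0.19, adjusted p 0.250). It was -0.70 (adjusted p 0.0088) with libraries 4 to 7 alone and 0.13 (adjusted p 0.726) with libraries 1 to 3 alone. The ratio of Abcg1 to Abca1 within libraries was past the threshold in none of the 3 comparisons (exact permutation test, adjusted p 0.209 to 0.873).

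In the lysosome, Npc2 ran from 3987 to 7931 normalised reads in Chow_EmKCs (median 5892), from 4361 to 6092 in MCD_EmKCs (median 4829) and from 4926 to 10534 in MCD_MoKCs (median 5999). The 3 highest MCD_MoKCs libraries, at 7794, 8392 and 10534, were libraries 1 to 3. The log2 fold change between MCD_MoKCs and MCD_EmKCs was 0.47 (SE 0.18, adjusted p 0.089). With libraries 1 to 3 alone it was 0.85 (adjusted p 0.0080), and with libraries 4 to 7 alone 0.19 (adjusted p 0.653). With the share of reads on short genes as a covariate it was 0.07 (adjusted p 0.866). All annotated exons of Npc2 together hold 5438 bases, which need not be the length of its transcripts. The cause of this change in Npc2 was not tested.

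Npc1, the membrane partner of Npc2, ran from 626 to 1102 normalised reads in Chow_EmKCs, 757 to 1170 in MCD_EmKCs and 668 to 1431 in MCD_MoKCs. Its log2 fold changes were 0.17, 0.14 and 0.31 with SE of at most 0.20, and none was called. Its counts may include reads of the antisense gene Rmc1, since the strand setting of the counting is not stated. The ratio of Npc2 to Npc1 was past the threshold in none of the 3 comparisons either (exact permutation test, adjusted p 0.313 to 0.883).

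**Figure D4:**
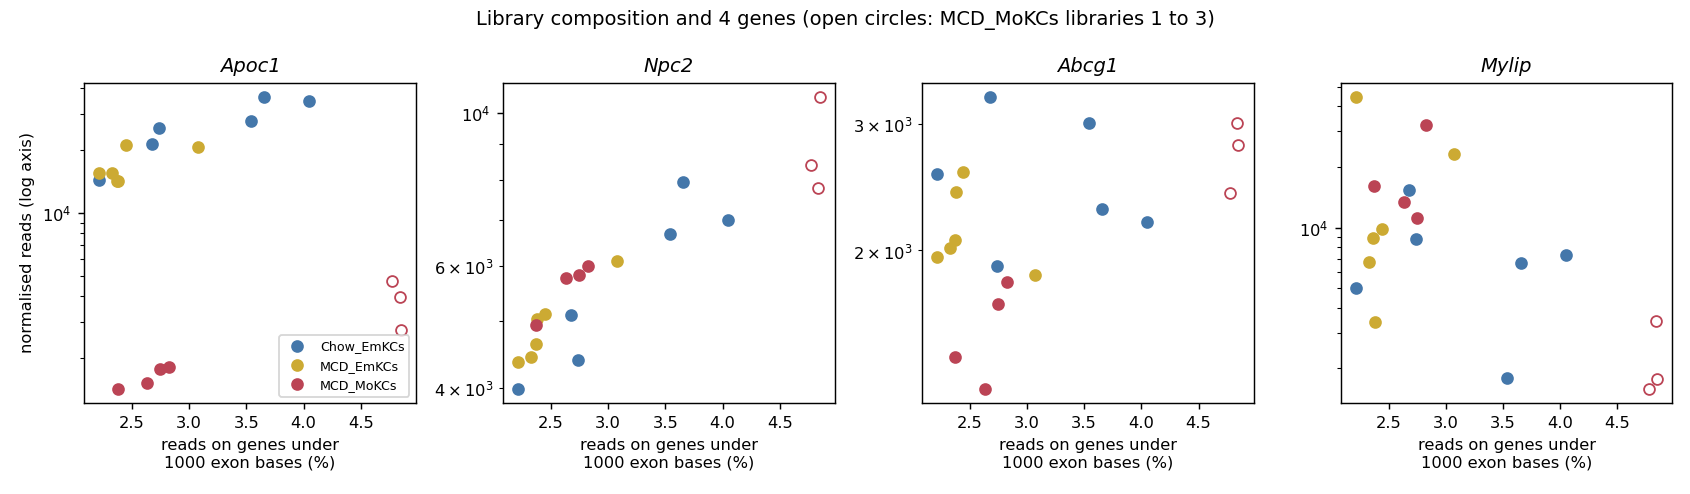
Normalised reads (log axis) of Apoc1, Npc2, Abcg1 and Mylip in each library against the percentage of reads on genes with under 1000 exon bases, which leaves out the 10 genes and mitochondrial genes. Points are libraries coloured by group, open circles MCD_MoKCs libraries 1 to 3, which lie at 4.78 to 4.85%. Apoc1 is at or below 1819 in MCD_MoKCs libraries 4 to 7, at shares of 2.37 to 2.83%, and at or above 14236 in every EmKC library.

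Mylip was the most variable of the 10, with a coefficient of variation of 60.4% on chow and of 96.1% in each MCD group. The next highest were Abca1 at 34.8% and 22.4% in the EmKC groups and Apoc1 at 50.7% in MCD_MoKCs. It ran from 1783 to 15293 normalised reads in Chow_EmKCs (median 6979), from 3401 to 44414 in MCD_EmKCs (median 9384) and from 1581 to 32334 in MCD_MoKCs (median 11156). MCD_MoKCs libraries 1 to 3 had 3413, 1581 and 1758, and libraries 4 to 7 had 11156, 32334, 13386 and 16033. The sets within MCD_MoKCs do not overlap, and they lie in the opposite order to Npc2. The log2 fold changes were 0.86 (SE 0.80), -0.71 (SE 0.77) and 0.15 (SE 0.77), with adjusted p of 0.661, 0.646 and 0.934. Between MCD_MoKCs and MCD_EmKCs the 95% interval ran from -2.34 to 0.92.

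Lpcat3 ran from 712 to 1534 normalised reads in Chow_EmKCs (median 987), from 989 to 1456 in MCD_EmKCs (median 1219.8) and from 724 to 1404 in MCD_MoKCs (median 952). The groups overlapped and the log2 fold changes were 0.30, -0.32 and -0.02. It overlaps Emg1 on the other strand.

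The receptor Nr1h2 ran from 1738 to 3483 normalised reads in Chow_EmKCs (median 2177), from 1378 to 2572 in MCD_EmKCs (median 1849) and from 1383 to 2448 in MCD_MoKCs (median 1986). Its log2 fold changes were -0.27, 0.03 and -0.25, and none was called. Nr1h3, the LXRα gene and the other receptor of the pathway, was higher on chow. Its mean was 13671 ± 1642 on chow, and on the MCD diet 8361 ± 572 in EmKCs and 6808 ± 709 in MoKCs. It fell on the diet (-0.70, SE 0.11, adjusted p 0.00026), was at -0.30 (SE 0.11, adjusted p 0.081) between MCD_MoKCs and MCD_EmKCs, and fell against Chow_EmKCs (-1.003, SE 0.11, adjusted p 1.31e-07). No library of either MCD group reached the lowest chow library, which had 10950.0. Nr1h3 overlaps Gm13783 on the same strand, and the part of that overlap in the Nr1h3 values was not tested. The mitochondrial share was lower in MCD_EmKCs than on chow as well, as given above.

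Scaled by exon length to a common library total (TPM), Apoe was highest in every group, at 48907 in Chow_EmKCs, 54323 in MCD_EmKCs and 54107 in MCD_MoKCs. Apoc1 was second in both EmKC groups, at 4436 and 3117 TPM, with no overlap with Apoe or Mylip. In MCD_MoKCs it had 367 ± 116 TPM and ranked 3, overlapping Mylip at 462 ± 452. Npc1 was lowest throughout, at 10.2 to 11.9 TPM, and did not overlap its neighbour in the order. Between Npc2 and Apoc2 in this order each gene overlapped the next in every group, and Lpcat3 overlapped Abcg1. Genes further apart did not always overlap on this scale. Npc2 lay at 113 to 167 TPM and Apoc2 at 70.1 to 86.0 TPM in Chow_EmKCs. In MCD_EmKCs they lay at 99.3 to 145 and 43.0 to 60.0 TPM. The order depends on the lengths used, which count every annotated exon base of a gene (5438 for Npc2, 813 for Apoc2 and 3233 for Mylip). Other lengths were not tested.

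The other genes around sterol handling came from lists chosen by role. Between MCD_EmKCs and Chow_EmKCs, single genes were called higher in 2.5% and lower in 1.58% of all genes tested. Between MCD_MoKCs and MCD_EmKCs these were 5.64% and 4.9%, and between MCD_MoKCs and Chow_EmKCs 8.68% and 8.08%. Among 13 receptors and cofactors, Nr1h2 included, 0 rose and 1 fell on the diet (Nr1h3). Against MCD_EmKCs, 3 fell in MCD_MoKCs, among them the receptor partner Rxra (-0.92, SE 0.17) and the coactivator Ncoa1 (-1.34, SE 0.24). Against Chow_EmKCs, 4 fell.

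Among 10 other LXR targets, 2 rose on the diet, the desaturase Scd2 (0.99, SE 0.24) and the lipase Lpl (0.87, SE 0.14). In MCD_MoKCs against MCD_EmKCs Lpl rose again (0.54, SE 0.14), and 3 fell, including the desaturase Scd1 (-2.37, SE 0.40) and Cd5l (-0.89, SE 0.12), which is also a Kupffer cell marker. Lpl stood at 10948 ± 2539 normalised reads on chow, 19659 ± 2567 in MCD_EmKCs and 28548 ± 4247 in MCD_MoKCs. With MCD_MoKCs libraries 1 to 3 alone, Lpl was not called between the MCD groups. In MCD_MoKCs against Chow_EmKCs, 2 of the list rose, Lpl (1.40, SE 0.14) and Scd2 (1.04, SE 0.23). There 4 fell, including Scd1 (-2.02, SE 0.40) and Cd5l (-0.93, SE 0.12). Lpl encodes the lipase that APOC2 activates and APOC1 inhibits.

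Among 7 genes of oxysterol metabolism, 2 fell on the diet, Hsd3b7 (-0.73, SE 0.17) and Cyp27a1 (-0.61, SE 0.16), which makes 27-hydroxycholesterol, and none was called between the MCD groups. In MCD_MoKCs against Chow_EmKCs, 3 fell. Among 8 other efflux genes, Apoa1 (-3.15, SE 0.42) and Apoa2 (-1.88, SE 0.38), main HDL proteins made by hepatocytes, fell on the diet together with the hepatocyte markers, a list to which both belong. The same 2 were the only ones called in MCD_MoKCs against Chow_EmKCs, and both fell.

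Among 13 lysosomal genes none was called on the diet, while Psap (1.16, SE 0.15) and Gm2a (0.76, SE 0.13), which encode lipid-binding activators, rose and Scarb2 (-0.59, SE 0.12) fell in MCD_MoKCs against MCD_EmKCs. Psap was 31447 ± 8281 normalised reads in MCD_EmKCs and 68807 ± 9373 in MCD_MoKCs. Among 10 genes of sterol transfer and storage, 3 rose on the diet, including Gramd1b (1.16, SE 0.25), which moves cholesterol to the endoplasmic reticulum, and the lipid droplet protein Plin2 (0.71, SE 0.14). Plin2 rose again between the MCD groups (0.48, SE 0.14), but was not called there with MCD_MoKCs libraries 1 to 3 alone. The acyltransferase Lpcat1 rose on the diet (0.99, SE 0.26), the only one of 6 relatives of Lpcat3 to be called.

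Lipoprotein receptors and sterol synthesis genes driven by SREBP2 were listed too. Of 3 receptors tested, none was called on the diet. Between MCD_MoKCs and MCD_EmKCs 1 rose, the apolipoprotein E receptor Lrp8 (4.61, SE 1.16). Lrp8 was low, with 0 to 129 normalised reads in MCD_EmKCs (mean 36.5) and 26.6 to 514 in MCD_MoKCs (mean 219). The groups overlapped, and with libraries at 0 the log2 fold change does not measure the ratio of the means. Of 10 SREBP2 targets, 1 rose on the diet (Insig1, 1.04, SE 0.25), 4 rose in MCD_MoKCs against MCD_EmKCs, with Sqle (2.27, SE 0.56) and Idi1 (2.43, SE 0.80) the largest, and 6 rose against Chow_EmKCs. Idi1 was low too, with 0 to 86.7 normalised reads in MCD_EmKCs and 33.3 to 270 in MCD_MoKCs, and these groups overlapped. The median log2 fold change of the 10 SREBP2 targets was 0.89 between the MCD groups, beside 0.02 over all genes. It was 0.92 with MCD_MoKCs libraries 1 to 3 alone, where 1 of the 10 was called, and 0.72 with libraries 4 to 7 alone, where 2 were called. Lrp8 was not called between the MCD groups with libraries 4 to 7 alone. The T cell and dendritic cell markers given above were higher in the same group, and their part in these values was not tested.

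**Figure D5:**
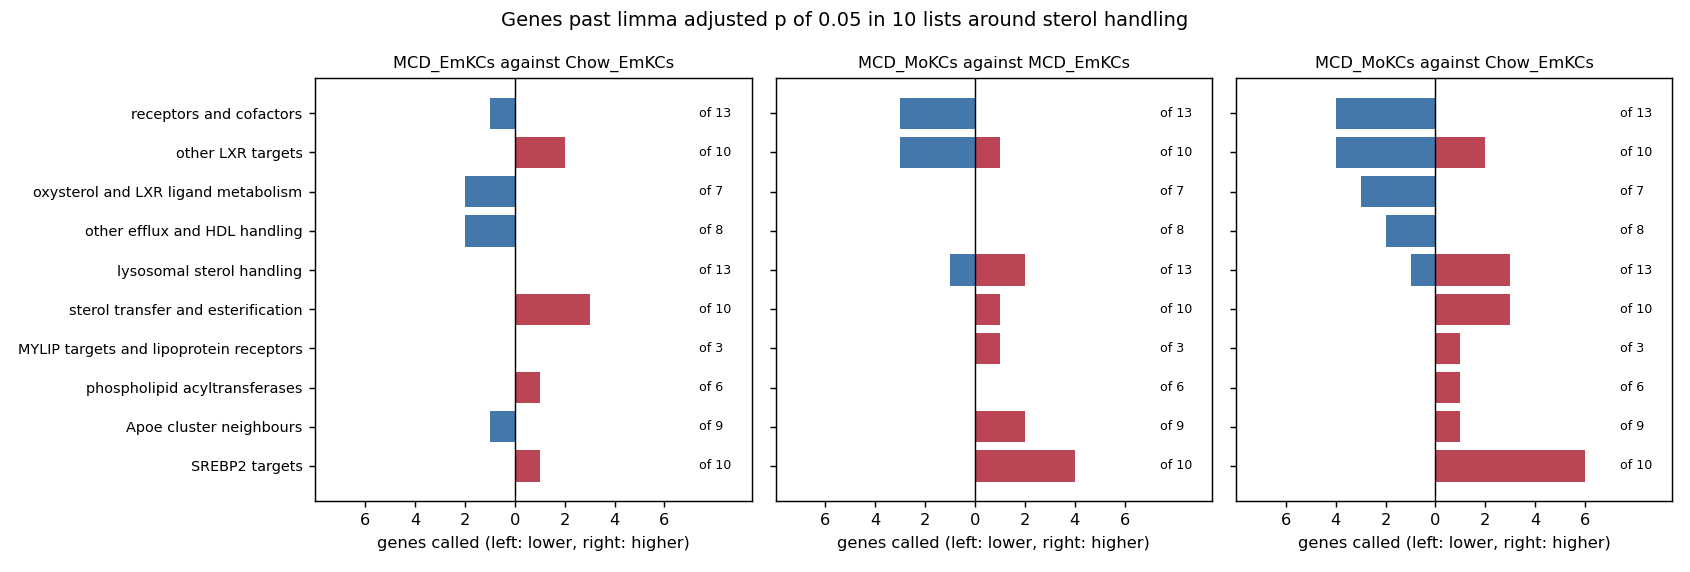
Number of genes called (adjusted p under 0.05 in limma) in 10 lists around sterol handling, lower to the left and higher to the right, for the 3 comparisons. The figures at the right give the genes tested per list. SREBP2 targets have 1, 4 and 6 genes higher and none lower.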

How the data were processed

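The RNA-seq table holds 33919 identifiers in 19 columns, 1 per library. Its unit is a signal the authors made before they deposited it: values within a library were whole multiples of 1 step, within 0.001, as reads divided by a size factor are. Per the submitters' processing notes, STAR, DESeq2 and mm10 were used, and the read counter is not given in the sources used here. Symbols, exon lengths and positions came from GENCODE for mm10 (29062 identifiers matched). TPM was computed from the length of all annotated exons of a gene together. All groups entered 1 limma fit (version 3.58.1, R 4.3.3) of log2(value + 1), with trend and robust variances, on 14875 genes with at least 10 normalised reads in at least 6 libraries. Benjamini-Hochberg adjustment covered all of them, at 0.05. edgeR (4.0.16) and DESeq2 (1.42.0) tested the recovered reads of 18 libraries: for Chow_EmKCs 1 the step lay too near 1 to show that reads were recovered. Ratios had exact permutation tests (scipy 1.17.1). The fit was tested on simulated data.

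The members and lists (10 pathway and 10 marker lists) were chosen with earlier results of these data known, and 2 genes not reported here were left out of the lists. Besides the members, Nr1h3 and Apoc4, the rule named per list and comparison up to 2 higher and 2 lower called genes of largest fold change, and the 3 genes nearest each called member. Alternatives were other scalings, filters, pseudocounts, library subsets, a replicate block and covariates. Splits of MCD_MoKCs and the short-gene covariate were chosen after seeing the data.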

Additional observations from a re-analysis of the deposited data

Results flagged for a closer look

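Apoe in Chow_EmKCs 3 stood apart from the other chow libraries at 1239700 normalised reads. The next highest was 812423 and the lowest 631261, so its gap was 0.702 of the group's range, above the 0.625 allowed for 6 libraries. It was the only library beyond this limit among 45 groups of values checked, and chance passes it in about 1 group of 20. Without it the Apoe difference between MCD_MoKCs and Chow_EmKCs was 0.42 on the log2 scale.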

How the results depend on the processing

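The lower Apoc1 in MCD_MoKCs kept its direction and its call in all 29 alternatives of both comparisons. The replicate numbers of the labels showed no pairing over all genes. Over 18 same-numbered pairs the correlation of deviations ran from -0.074 to 0.076, 0 exceeded 0.1, and 4 of 18 correlated best with their own number. This cannot show that libraries are unpaired, since a pairing under unlike numbers or in a few genes was not tested. With the replicate block, 4 of the 10 genes were called between MCD_MoKCs and MCD_EmKCs, with Abca1 at -0.58 (adjusted p 0.0357) and Npc2 at 0.55 (adjusted p 0.0080), Nr1h2 was -0.030 there, and Mylip was -0.058 against Chow_EmKCs. The count tests were planned on 19 libraries and run on 18. There edgeR called 400 genes for the diet, against 607. With the libraries whose label number (17 to 48) is up to 33, 179, 870 and 1257 genes were called in the 3 comparisons (limma, all libraries: 607, 1568 and 2493), and from 37, 263, 565 and 1288. Between the MCD groups the short-gene covariate gave 1030 and MCD_MoKCs 4 to 7 gave 1010. In that comparison 1 of the 10 genes, Apoc1, was called with numbers up to 33, from 37, with the covariate and with MCD_MoKCs 4 to 7. Apoc2 was not called in these settings, with 0.96 (adjusted p 0.0554) up to 33 and 0.69 (adjusted p 0.408) from 37. Against Chow_EmKCs 2 were called with numbers from 37 (Abcg1 -0.90), with MCD_MoKCs 1 to 3 (Npc2 0.64) and with 4 to 7. Leaving out single libraries gave 2 to 3 called between the MCD groups (Npc2 called without MCD_MoKCs 7) and 1 to 2 against Chow_EmKCs. Every sign that turned belonged to a value not called with all libraries. For the diet these were Apoe with library-total scaling (-0.054) and numbers up to 33 (-0.11), Nr1h2 up to 33 (0.10), Mylip (-0.58), Npc1 (-0.097) and Npc2 (0.070) from 37, and Npc2 with the covariate (0.042). Between the MCD groups they were Abcg1 (0.12) and Nr1h2 (-0.28) up to 33, Mylip from 37 (1.32), with the covariate (0.43) and with MCD_MoKCs 4 to 7 (0.57), and Abcg1 (0.36) and Nr1h2 (-0.25) with 1 to 3. Against Chow_EmKCs they were Lpcat3 (0.18) and Npc1 (-0.0061) from 37, Abcg1 (0.13) and Mylip (-1.56) with 1 to 3, and Lpcat3 (0.0040) and Npc2 (-0.014) with 4 to 7. Leave-one-out ranges that crossed 0 were Apoe for the diet (-0.041 to 0.16), Nr1h2 between the MCD groups (-0.067 to 0.11), and Lpcat3 (-0.11 to 0.11) and Mylip (-0.23 to 0.50) against Chow_EmKCs. The log2 ratio of Npc2 to Npc1 was -0.91 for the diet up to 33 and 0.17 from 37, 0.26 against Chow_EmKCs from 37, 0.81 and 0.43 with MCD_MoKCs 1 to 3 against the EmKC groups, and -0.023 with 4 to 7 against MCD_EmKCs. It ran from -0.19 to 0.096 over single libraries left out against Chow_EmKCs. The log2 ratio of Abcg1 to Abca1 was 0.0054 up to 33 and 0.38 with 1 to 3 against Chow_EmKCs, -0.26 from 37 between the MCD groups, and -0.26 to 0.035 over single libraries left out against Chow_EmKCs. The log2 ratio of Apoc1 to Apoe was -2.48 and -3.13 with 1 to 3, and ran from -0.74 to -0.54 for the diet over single libraries left out. The cause of these moves was not tested, beyond the fewer libraries in each subset.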

Other observations

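Markers of other liver and blood cells gave these counts. Of 9 stellate cell markers, none was called between EmKC groups or between MCD groups, and Col3a1 rose in MCD_MoKCs against Chow_EmKCs. Of 9 sinusoidal endothelial markers, 5 rose and 2 fell in MCD_MoKCs against MCD_EmKCs, and their summed share was 0.0188 to 0.0743% in MCD_MoKCs and 0.0316 to 0.0587% in MCD_EmKCs. Of 8 monocyte and neutrophil markers, 4 rose in MCD_MoKCs against MCD_EmKCs, among them Ccr2. Ccr2 had 479 to 1107 normalised reads in MCD_MoKCs and at most 95.7 in MCD_EmKCs. Against Chow_EmKCs, 1 rose in MCD_EmKCs and 5 rose in MCD_MoKCs, while Plac8 fell in both. The summed share was 0.0217 to 0.0310% in Chow_EmKCs, 0.0134 to 0.0210% in MCD_EmKCs and 0.0176 to 0.0388% in MCD_MoKCs. Of 8 T and NK cell markers 4 rose in MCD_MoKCs against MCD_EmKCs, and of 6 dendritic cell markers 3 rose. Of 3 B cell and plasma cell markers, Cd79a rose between the MCD groups. Of 2 platelet markers tested, Treml1 rose in each MCD group against Chow_EmKCs. The 1 cholangiocyte marker tested was not called. Of 12 Kupffer cell markers, Marco rose on the diet, Clec4f, Folr2 and Csf1r fell on the diet, and 11 fell in MCD_MoKCs against Chow_EmKCs.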
